A study of Mus musculus with 10 samples.

Results

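The first hour of restimulation in mouse embryonic fibroblasts (MEFs) that had met interferon before was described here from the pretreated library at 1 h and the pretreated library at 0 h, which are 2 of the 10 samples of the series. Each symbol was represented by its transcript with the highest mean RPKM (reads per kilobase of transcript at a common sequencing depth) over the 10 libraries. The comparison covered the genes that reached 1 RPKM in 2 or more libraries, which were 12168 of 23370 symbols. Both libraries, and the naive ones set beside them, came from C57BL/6 MEFs that carry an H3.3b-HA knock-in, in which a cDNA for tagged histone H3.3 stands in for the H3f3b gene, so the controls carry that allele too. MEFs are connective tissue cells grown out of embryos. The treatment was interferon-beta (IFN-β) at 100 U per ml, stated for the series as a whole. Neither the dose and duration of the earlier exposure nor any washout is stated in the labels. Hours were taken as counted from the addition of IFN-β. The naive arm held the matching comparison, in cells with no earlier exposure, and shares no library with the pretreated one. With 1 library for each arm and time, no difference below could be tested, and no p-value is given. No library was labelled as unstimulated at 1 h, so the change from 0 h and the effect of handling or time in culture cannot be told apart. In bulk RNA, fewer cells of a kind and less RNA per cell cannot be told apart either.

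IFN-β binds a receptor at the cell surface whose JAK kinases activate STAT proteins. The factor ISGF3, which contains STAT2 and IRF9, binds the interferon-stimulated response element (ISRE) in the promoters of interferon-stimulated genes, while STAT dimers bind gamma-activated sites (GAS). Feedback proteins such as SOCS1 and USP18 then damp the receptor, and cells that have met interferon can keep part of the induced RNA, protein and chromatin state for a later encounter.

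The pretreated libraries held 129 M (0 h) and 146 M (1 h) tag counts, and the naive ones 94.4 M and 151 M. The ribosomal precursor Rn45s took 3.90% and 2.85% of the counts in the pretreated 0 and 1 h libraries, against 0.974% to 1.51% in the other 8. The summed RPKM of 10 fibroblast markers lay between 8074 and 11621 in the 10 libraries. Those of macrophage, endothelial, epithelial, neural, muscle and lymphocyte markers lay between 0.00800 and 7.84. The libraries thus carried most markers of the labelled cell type and little of the others. Lum, 1 of the 10 fibroblast markers, was near absent, at 0.006 to 0.195 RPKM. Within the pretreated arm the 1 and 4 h libraries shared some levels that those of 0, 2 and 6 h lacked: 9 genes were 2-fold or more higher and 3 lower in both than in each of the other 3. By order alone, 1095 genes (9%) were higher in both and 1254 (10.3%) lower in both. A random order of the libraries of this arm would give any chosen pair shares of about this size, so the shares do not set this pair apart. Other pairs of libraries were not counted this way. Counts are given with and without the genes ordered this way.

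In the pretreated cells 159 genes rose 2-fold or more in the first hour, which is 1.31% of the genes compared, and 31 fell (0.255%). Fold changes are differences of log2(RPKM + 1), which makes those of low genes too small. In naive cells 246 genes rose (2.02%) and 22 fell (0.181%). The largest rises of the pretreated arm were in the chemokine Cxcl10, the antiviral enzyme Rsad2, the GTPase Mx1, the T-cell inhibitory ligand Cd274 and the feedback inhibitor Socs1. Of the 159 rises, 69 also rose in naive cells at 1 h, which is 43.4% of the pretreated rises and 28.0% of the naive ones. Another 39 were not 2-fold higher in naive cells at 1 h but were at 2, 4 or 6 h, as were 7.19% of all genes. With a pseudocount of 0.1 RPKM in place of 1, 18 of the 39 were also 2-fold higher in naive cells at 1 h. The last 51 were never 2-fold higher in the naive course. These 3 groups also differed in how they tracked the 1 and 4 h libraries: 4 of the 69, 5 of the 39 and 45 of the 51 were higher in both of those libraries than at 0, 2 and 6 h, against 9% of all genes. Choosing genes for a rise at 1 h raises that share in each group. Without all genes ordered that way, or the opposite way, 105 rises and 18 falls were left, of which 65 rises were shared with the naive arm.

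**Figure D1:**
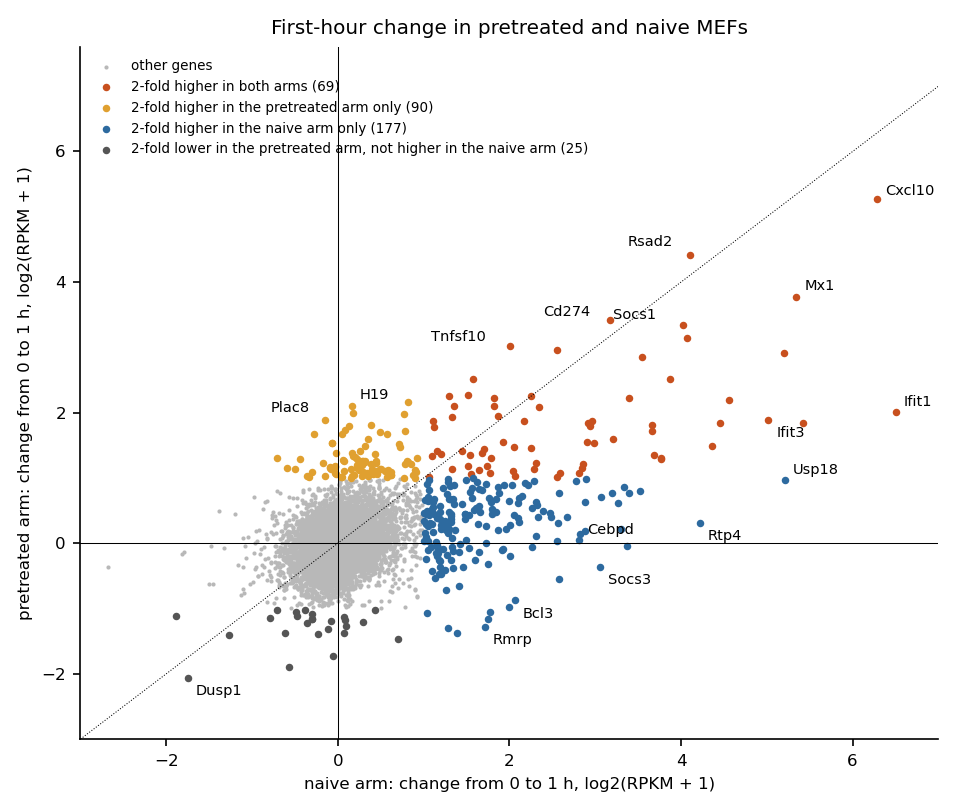
Change from 0 to 1 h on the log2(RPKM + 1) scale in the naive arm (x axis) and the pretreated arm (y axis), 1 point per gene, with 1 library per arm and time and the diagonal of equal change dotted. The 69 genes that rose in both arms reach 5.27 for Cxcl10 in the pretreated arm, while Socs3, Cebpd and Rtp4 lie far to the right near or below the horizontal line.

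Promoter sequences are shown for the 3 largest rises that hold an ISRE-type match (GAAANNGAAA) and the 3 largest that hold a GAS-type match (TTCNNNGAA), among rises with a promoter in the table used (Mx1 and Mx2 had none), since these letters are the known binding patterns of ISGF3 and of STAT dimers. Both strands were searched in the RefSeq promoter table (GRCm38.p6), which gives 300 bases around each start, most of them before it. Capitals mark the match, and each sequence reads 5′ to 3′ on the strand of the gene.
Cxcl10: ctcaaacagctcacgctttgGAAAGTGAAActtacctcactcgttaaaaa
Rsad2: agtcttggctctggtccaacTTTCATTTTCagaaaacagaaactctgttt
Socs1: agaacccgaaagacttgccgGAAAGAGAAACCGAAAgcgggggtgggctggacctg
Ifit2: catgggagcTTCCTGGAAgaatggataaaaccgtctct
Gbp5: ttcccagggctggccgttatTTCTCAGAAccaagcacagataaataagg
Irf1: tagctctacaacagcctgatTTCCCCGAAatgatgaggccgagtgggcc
The Cxcl10 stretch lies at chr5:92349073-92349122 on the minus strand, and its match ends 204 bases before the start. That of Rsad2 lies at chr12:26456543-26456592 on the minus strand, with a match on the opposite strand that ends 111 bases before the start. The Socs1 stretch, at chr16:10785584-10785639 on the minus strand, holds 2 overlapping matches that end 68 bases before the start. On the plus strand lie the GAS-type stretches of Ifit2 at chr19:34550444-34550481, of Gbp5 at chr3:142496862-142496910 and of Irf1 at chr11:53769904-53769952. Their matches end 233, 44 and 82 bases before the start, and the Gbp5 promoter holds 2 matches, of which the nearer is shown. Among all 32851 promoters of the table, 3.44% hold the ISRE-type and 8.30% the GAS-type letters. Of the 35 antiviral effectors below, 28 had a promoter in the table, and 15 of these (53.6%) hold the ISRE-type letters. Lower shares were found in other lists below: 7 of 15 ISG15 and ubiquitin-type ligase genes (46.7%) hold them. So do 2 of 16 receptor, kinase, STAT and IRF genes (12.5%) and 2 of 18 cell death and PML body genes (11.1%). For the 159 rises only 102 had a promoter, under 80%, so a share over them is void. A match is a run of letters and not a measured binding site.

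Chemokines and other secreted or surface signals gave the largest rise. Cxcl10, which attracts activated T cells, stood at 11.7, 490, 1412, 1225 and 719 RPKM at 0, 1, 2, 4 and 6 h in pretreated cells. In naive cells it stood at 0.631, 126, 840, 1051 and 1101 RPKM. The pretreated cells thus began higher, were higher at 1, 2 and 4 h, and were lower at 6 h. The rise was 5.27 on the log2 scale in pretreated and 6.28 in naive cells, and counting error alone gives a pretreated RPKM ratio of 39.8 to 43.9 (95% exact binomial interval, here and below, covering counting error only). Of the 19 chemokine and cytokine genes that passed the filter, 6 rose and 0 fell in pretreated cells, with a median of 0.44 against 0.01 over all genes, and 5 rose in naive cells. Cxcl11, a chemokine with the same receptor as Cxcl10, went from 0.168 to 3.63 RPKM in pretreated and from 0 to 0.130 RPKM in naive cells. Ccl5, which draws T cells and monocytes, went from 19.1 to 50.7 RPKM in pretreated and from 6.92 to 9.72 in naive cells, where it reached 74.7 at 4 h. The monocyte chemokine Ccl2 showed the other order, with 285 and 315 RPKM in pretreated and 95.1 and 678 in naive cells. Il6, an inflammatory cytokine, rose from 0.956 to 8.30 RPKM in pretreated and from 0.0100 to 3.81 in naive cells. Ccrl2, an atypical chemoattractant receptor, stood at 0.374 and 5.14 RPKM in pretreated cells and at 0.0300 and 0.818 in naive cells.

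Both surface ligands among the leading rises were highest at 2 h in pretreated cells and still above their 0 h level at 6 h. Cd274 (PD-L1), which restrains T cells, stood at 1.89, 29.8, 111, 21.3 and 12.5 RPKM, and in naive cells at 0.420, 11.8, 40.4, 35.5 and 17.0. Tnfsf10 (TRAIL), a death ligand, stood at 1.18, 16.8, 58.1, 15.4 and 10.0 RPKM, and in naive cells at 0.0970, 3.40, 22.6, 25.2 and 19.3. For both genes the pretreated level was the higher one at 0, 1 and 2 h and the lower one at 4 and 6 h. The log2 rise in the first hour was 3.41 for Cd274 and 3.03 for Tnfsf10, against 3.17 and 2.0 in naive cells.

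**Figure D2:**
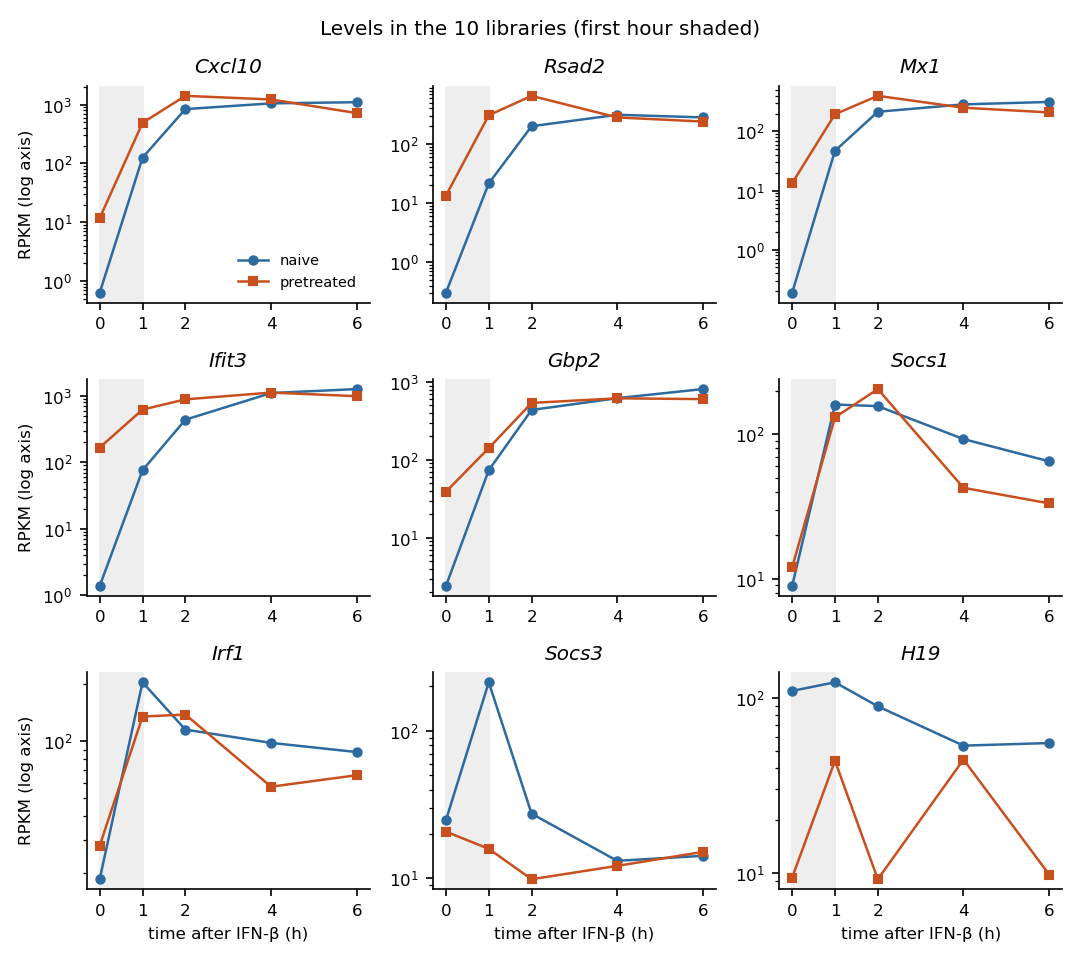
RPKM on a log axis against hours after IFN-β in the naive (blue circles) and pretreated (orange squares) libraries for 9 genes, 1 library per point, with the first hour shaded. Cxcl10, Rsad2, Mx1, Ifit3 and Gbp2 begin higher in pretreated cells and stay higher at 1 and 2 h, Socs3 is high in the naive 1 h library (213 RPKM), and H19 is high in the pretreated 1 and 4 h libraries.

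Among the antiviral effectors, which block viral entry, translation or replication, 12 of 35 rose in pretreated and 23 of 35 in naive cells, and none of the 35 fell in either arm. The median change was 0.58 in pretreated and 1.79 in naive cells. Rsad2 (viperin), which makes a chain-terminating nucleotide, stood at 13.3, 305, 650, 280 and 239 RPKM in pretreated cells. The naive values were 0.302, 21.4, 199, 311 and 281, so the naive 1 h level lay above the pretreated 0 h level and far below the pretreated 1 h level. Its log2 rise was 4.42 in pretreated and 4.11 in naive cells, with a pretreated RPKM ratio of 22.4 to 23.5 by counting error. Mx1, a GTPase that traps viral ribonucleoproteins, stood at 13.3 and 195 RPKM in pretreated and at 0.186 and 47.0 in naive cells. Its relative Mx2 stood at 12 and 97.4 RPKM, against 0.164 and 41.7. Cmpk2, a nucleotide kinase encoded beside Rsad2, stood at 16.3 and 97.9 RPKM, against 0.147 and 15.8. In all 4 genes the pretreated 1 h level was above the naive one.

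The Ifit genes, whose proteins bind viral RNA, differed among themselves in starting level in pretreated cells. Ifit1 went from 158 to 638 RPKM in pretreated and from 3.14 to 374 in naive cells, a log2 rise of 2.01 against 6.5. Ifit3 went from 167 to 620 RPKM in pretreated and from 1.38 to 76.0 in naive cells, 1.89 against 5.02. Ifit2 began far below Ifit1 and Ifit3 in pretreated cells, at 14.4 RPKM, and between them in naive cells, at 2.59 RPKM. It reached 119 RPKM in pretreated and 20 in naive cells, 2.96 against 2.55. Ifit3 and I830012O16Rik are near-identical neighbours, and the labels do not say how reads shared by them were counted. Other effectors were already high at 0 h and moved under 2-fold. Rtp4 stood at 136 and 168 RPKM in pretreated and at 4.01 and 92.1 in naive cells, and Oasl2, of the oligoadenylate synthetase family, at 165 and 193 RPKM against 1.27 and 21.2.

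Of the 24 interferon-inducible GTPases, which attack the vacuoles of intracellular microbes, 17 rose in pretreated and 21 in naive cells, with 0 falls. The median was 1.40 in pretreated and 2.87 in naive cells, and all 24 were above 0 in the pretreated arm. Gbp2 went from 39.0 to 142 RPKM in pretreated and from 2.41 to 73.7 in naive cells. Igtp went from 47.2 to 134 RPKM in pretreated and from 1.94 to 59.5 in naive cells. Gbp5, also known for its part in inflammasome activity, went from 0.305 to 6.49 RPKM and from 0.025 to 2.06. Gbp4 went from 1.21 to 7.71 RPKM in pretreated cells and from 0.0170 to 0.737 in naive cells, where it reached 11.4 RPKM by 4 h. Its naive change at 1 h was 0.77 with the pseudocount of 1 RPKM and 2.84 with 0.1 RPKM, so the naive call turns on the pseudocount. Irgm1 went from 137 to 239 RPKM, under 2-fold, against 13 to 160 in naive cells. For 21 of the 24 the gain in RPKM was larger in pretreated cells, while for 5 the log2 change was.

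Signalling genes moved less. Of 18 receptor, kinase, STAT and IRF genes 3 rose in pretreated cells (Irf1, Irf5 and Batf2) and 6 in naive cells, with medians of 0.08 and 0.47. Irf1, a transcription factor at the head of many antiviral genes, stood at 27.9, 135, 138, 57.3 and 65.9 RPKM in pretreated and at 18.5, 205, 115, 97.8 and 87.4 in naive cells. Its naive level was the higher one at 1 h, unlike Cxcl10 or Rsad2. Stat2 and Irf9, which encode subunits of ISGF3, began high in pretreated cells. Stat2 stood at 97.2 and 149 RPKM in pretreated and at 9.30 and 98.1 in naive cells, and Irf9 at 69.5 and 87.2 RPKM against 11.6 and 53.3. Neither reached 2-fold in pretreated cells, and both did in naive cells. Irf7, a driver of late interferon genes, stood at 180 and 174 RPKM in pretreated and at 2.22 and 32.4 in naive cells.

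Of 16 feedback inhibitors, Socs1 alone rose 2-fold in pretreated cells, while 4 rose in naive cells. Socs1, whose protein binds JAK kinases and tags them for destruction, stood at 12, 131, 206, 42.6 and 33.2 RPKM in pretreated and at 8.90, 161, 157, 92.6 and 65.0 in naive cells. At 0 h and at 1 h its levels in the 2 arms lay within 1.5-fold of each other. Usp18, which removes ISG15 from proteins and blocks the receptor, stood at 76.6 and 150 RPKM in pretreated cells, a log2 change of 0.97, just under 2-fold, and at 0.398 and 50.7 in naive cells. Socs3, the inhibitor of IL-6 family receptors, stood at 20.7 and 15.9 RPKM in pretreated and at 24.7 and 213 in naive cells. Cish, another SOCS protein, stood at 2.95 and 3.92 RPKM against 2.91 and 22.1. Socs3 and Cish therefore had nearly the same level at 0 h in both arms.

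The 22 early genes of IL-6 type, STAT3-linked signalling moved in naive cells and little in pretreated cells. Of these, 1 rose in pretreated cells (Has2, a hyaluronan synthase) and 12 in naive cells, with medians of -0.07 and 1.23. In 0 of the 22 was the gain in RPKM larger in pretreated cells, against 52.7% of all genes. Cebpd, a transcription factor of the acute phase response, stood at 15.6 and 16.2 RPKM in pretreated and at 14.8 and 110 in naive cells. Bcl3, an atypical IκB protein, stood at 20.2 and 10.6 RPKM against 21.9 and 94.4. Junb, an AP-1 subunit, stood at 48.6 and 40.5 RPKM against 51.8 and 159. In these 3 genes the levels at 0 h lay close together in the 2 arms and those at 1 h far apart, and whether the arms differ could not be tested with 1 library each. Has2 was alike in both, at 6.68, 19, 74.6, 29.3 and 9.92 RPKM in pretreated and 6.32, 22.5, 50.3, 32.9 and 10.8 in naive cells. The list was written with earlier results of these data known, so its split is a description.

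**Figure D3:**
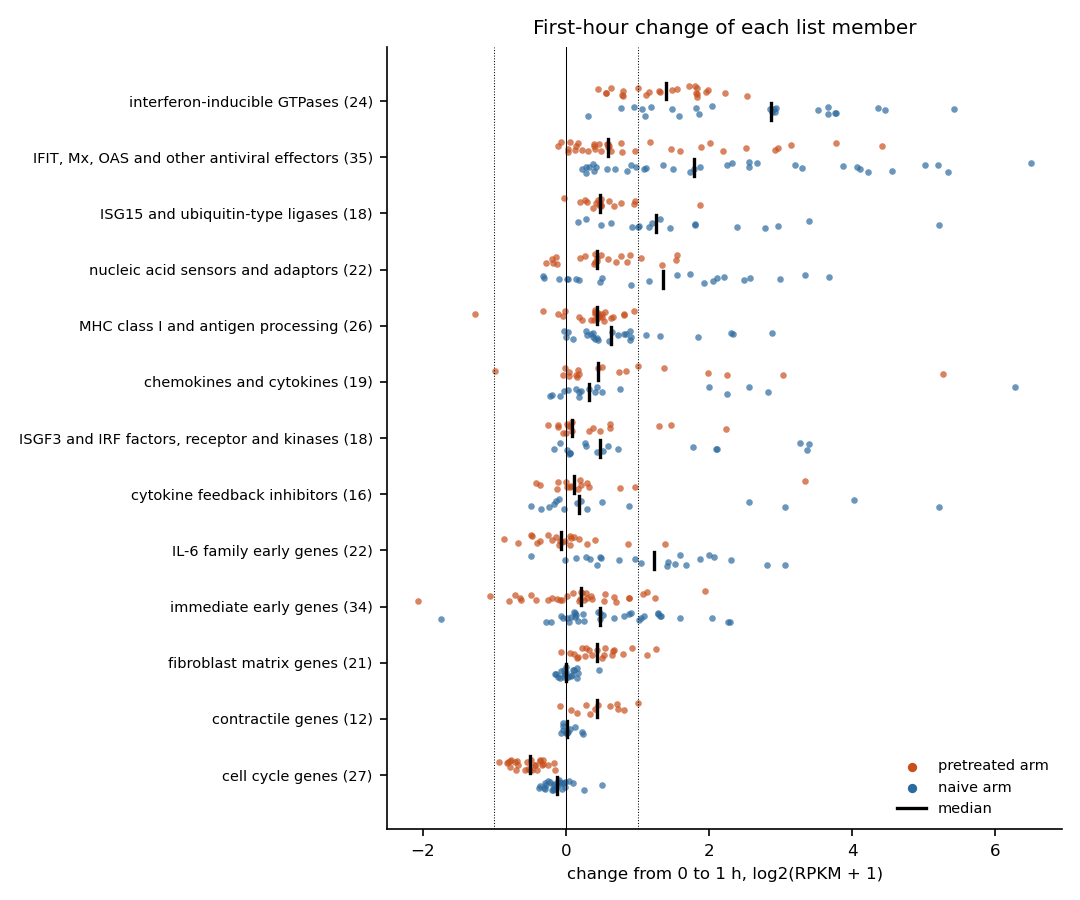
Change from 0 to 1 h on the log2(RPKM + 1) scale for each member of 13 gene lists (number of members in brackets) in the pretreated (orange) and naive (blue) arms, with black bars at the medians and dotted lines at 2-fold. The interferon-inducible GTPases lie highest in both arms (medians 1.40 and 2.87), the IL-6 family early genes have a higher median in naive cells (medians -0.07 and 1.23), and all 27 cell cycle genes lie below 0 in the pretreated arm.

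Of the other interferon-related lists, few members passed 2-fold in pretreated cells. Over all genes 1.31% rose in pretreated and 2.02% in naive cells. In the group of 18 ISG15 and ubiquitin-type ligase genes, Trim21, a ligase that binds antibody on incoming virus, rose (log2 change 1.87), against 13 rises in naive cells. Isg15 itself, the ubiquitin-like modifier, stood at 82.7 and 141 RPKM in pretreated and at 0.608 and 15.9 in naive cells. Of 22 nucleic acid sensors and adaptors 4 rose, against 12 in naive cells. Tlr3, the endosomal sensor of double-stranded RNA, was among them, with 14.4 and 43.9 RPKM in pretreated and 2.98 and 14.1 in naive cells. Of 26 genes of MHC class I presentation 0 rose and 1 fell (H2-Q10, 14.3 to 5.31 RPKM), and the median was 0.43 against 0.62 in naive cells. MHC class I genes are near-identical in part, and the rise of H2-K2 (log2 change 2.28), which was in none of the lists, is uncertain for that reason. None of 13 PARP genes reached 2-fold in pretreated cells, and 5 did in naive cells. In lists of 13 or 26 genes, 0 rises cannot be told apart from the share of 1.31% over all genes. Of 21 cell death and PML body genes 3 rose, among them Daxx, from 30.1 to 78.5 RPKM in pretreated and from 17.8 to 53.5 in naive cells.

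Many shared rises combined a larger gain in level with a smaller fold in pretreated cells. Among the 69 genes that rose in both arms, 57 gained more RPKM in pretreated cells, while 52 had the larger log2 change in naive cells. Of all 12168 genes, 6154 had the larger log2 change in pretreated cells. Where the pretreated level began higher, choosing genes for a 2-fold rise partly fixes the gain and fold counts of the 69. Among the 246 naive rises the gain was larger in pretreated cells for 99. Of all genes 52.7% gained more in the pretreated arm. Among the 159 pretreated rises 144 did so, a count that the choice of members partly fixes. The 8 largest gains among the rises were in Ifit1 (480 RPKM), Cxcl10, Ifit3 (453), Postn (342), Tmsb4x (325), I830012O16Rik, Rsad2 (292) and Ogn (284). At 1 h the 69 genes stood at a median of 45.4% of their own highest level in the pretreated course and 20.4% in the naive course. In pretreated cells 40 of them were highest at 2 h and 2 at 6 h, and in naive cells 14 at 2 h and 31 at 6 h. Neither these counts nor the percentages were taken over all genes, so they have no background beside them. Of the 159 rises 104 were also 2-fold above 0 h at 2 h, as were 438 of all 12168 genes. Both calls use the same pretreated 0 h library, so they are not independent.

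**Figure D4:**
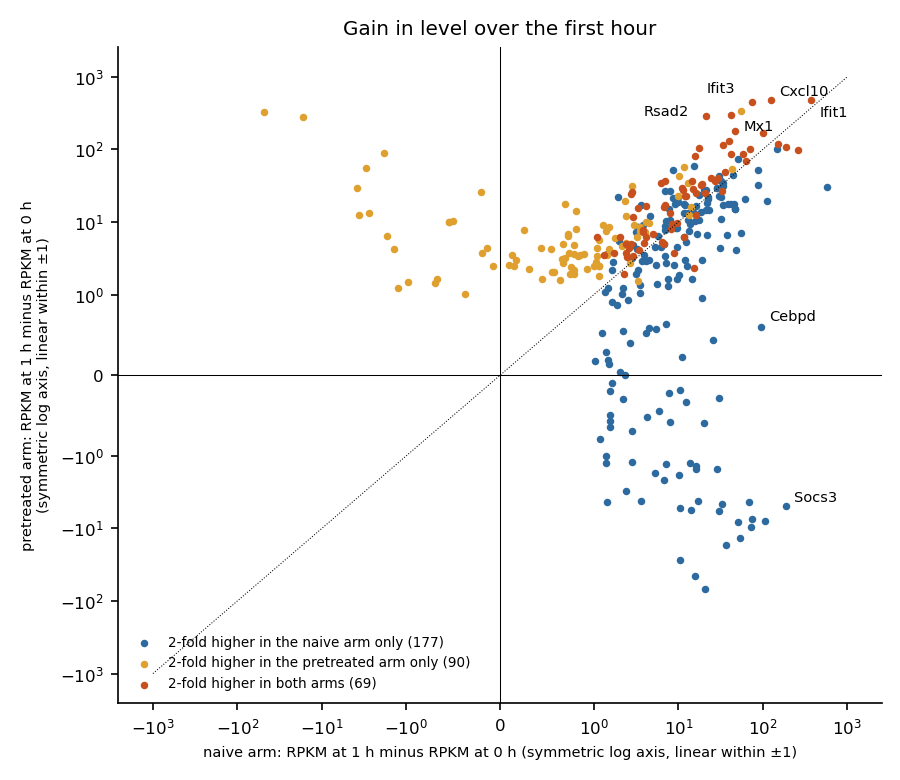
RPKM at 1 h minus RPKM at 0 h in the naive arm (x axis) and the pretreated arm (y axis), on symmetric log axes that are linear within ±1, for genes that rose 2-fold in either arm, 1 library per arm and time. Of the 69 genes that rose in both arms, 57 lie above the dotted line of equal gain, and Cebpd and Socs3 lie far below it.

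Among the 177 genes that rose 2-fold in naive cells and not in pretreated cells, 74 (41.8%) stood higher at 0 h in pretreated cells than at 1 h in naive cells, as Irf7, Oasl2 and Rtp4 did, against 51.0% of all genes. In 46 of the 177 (26.0%) the pretreated change was below 0, Socs3, Bcl3 and Rab20 among them, against 48.7% of all genes. Neither share was above that of all genes. Rab20, a small GTPase, stood at 3.06 and 1.78 RPKM in pretreated and at 0.429 and 7.52 in naive cells.

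The 39 genes that rose by 1 h in pretreated cells and passed 2-fold at 2, 4 or 6 h in naive cells held Ccrl2, Cxcl11, Gbp4, Plac8, Ccl5 and Irf5. For Ccrl2, Cxcl11 and Gbp4 this place rests on the pseudocount, since their naive changes at 1 h with 0.1 RPKM were 2.82, 1.2 and 2.84. The place of Irf5 rests on it too. Its naive level went from 0.751 to 1.89 RPKM, over 2-fold as a plain ratio, with a log2 change of 0.72 at 1 RPKM. Plac8 stood at 8.69, 34.7, 20.7, 98.6 and 61.3 RPKM in pretreated cells and at 1.10, 0.900, 3.26, 55.0 and 40.5 in naive cells, so it was above its naive level at each time. Tnfaip3, a ubiquitin-editing inhibitor of NF-κB, was also in this group (log2 change 1.02 in pretreated and 0.36 in naive cells at 1 h). It was the single rise among 18 NF-κB genes in pretreated cells, against 3 in naive cells.

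The remaining 51 rises held 2 genes of the fibroblast matrix list, 4 of the growth and imprinted list (H19, Igf1, Igfbp2 and Meg3) and 1 of the contractile list, each higher at 1 and 4 h than at the other times. H19, an imprinted noncoding RNA of fetal growth, stood at 9.39, 43.7, 9.19, 44.4 and 9.78 RPKM at 0, 1, 2, 4 and 6 h, so the 1 and 4 h libraries were alike and far above the other 3. Igfbp2, which binds insulin-like growth factors, stood at 5.34, 21.2, 3.81, 21.4 and 5.25 RPKM. The gelatinase Mmp9 stood at 0.707, 4.95, 0.806, 4.07 and 0.708. In the naive arm the values at 0 and 1 h were 110 and 123 RPKM for H19, 45.6 and 59.8 for Igfbp2 and 4.88 and 5.42 for Mmp9, all above the pretreated levels of the same times. Postn, a matrix protein, stood at 285, 627, 303, 679 and 326 RPKM, and Fmod, which orders collagen fibres, at 5.03, 13.5, 3.98, 11.3 and 3.34.

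Of 21 fibroblast matrix genes 2 rose (Postn and Fmod) and 20 were above 0, and the median against 0 h was 0.43 (1 h), -0.03 (2 h), 0.44 (4 h) and -0.00 (6 h). The median in naive cells at 1 h was 0.00. In 12 contractile genes 1 rose (Cnn1, a smooth muscle actin-binding protein), and the median was 0.43 (1 h), -0.19 (2 h), 0.24 (4 h) and -0.15 (6 h). Genes of this class were among the 4 largest gains in level over all genes: Col1a1 went from 3455 to 4433 RPKM, Col1a2 from 1270 to 2028 and Acta2 from 984 to 1512, each under 2-fold. Summed fibroblast markers, a sum that the collagens Col1a1, Col1a2 and Col3a1 dominate, stood at 8746 RPKM at 0 h and 10650 at 1 h, and at 8150, 9744 and 8074 at 2, 4 and 6 h. Of the 9 markers that passed the filter, these 3 and Dcn were above 0 and the other 5 (Pdgfra, Pdgfrb, Thy1, Vim and S100a4) below, with a median of -0.08. Summed macrophage markers stood at 3.56 and 2.77 RPKM at 0 and 1 h. The part of the split between libraries in these rises was not tested.

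At 2-fold or more on 1 side, 9 genes separated the 1 and 4 h libraries upwards and 3 downwards. The 3 were among the falls: Gpnmb, a lysosomal membrane glycoprotein, at 33.4, 8.25, 29.9, 7.51 and 28.9 RPKM, Itgb7, an integrin subunit, at 24.9, 6.79, 20.3, 5.46 and 17.6, and Cck, a peptide hormone gene, at 5.77, 1.57, 5.19, 1.22 and 4.20. In all, 13 of the 31 falls were lower at both 1 and 4 h than at the other times, against 10.3% of all genes. Choosing genes for a fall at 1 h raises that share. The cell cycle genes lay lower without a fall of 2-fold: 0 of 27 reached it, 0 of 27 were above 0, and the median was -0.50 (1 h), -0.33 (2 h), -0.98 (4 h) and -0.66 (6 h). In naive cells it was -0.13, -0.19, -1.07 and -0.92 at the same times, so the arms differed most at 1 h and both were low at 4 and 6 h. Of 14 reference genes 0 reached 2-fold, with a median of -0.08, while 1.31% of all genes rose and 0.255% fell. They were not all steady: 5 of the 14 were above 0, the highest being Hprt (0.14). The lowest were Tfrc (-0.83), Gapdh (-0.71) and Polr2a (-0.63), against -0.05, -0.03 and -0.14 in naive cells.

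Immediate early genes, which are transcribed within minutes of many stimuli, moved both ways: 4 of 34 rose and 2 fell in pretreated cells, and 11 rose and 1 fell in naive cells. Dusp1, a phosphatase of MAP kinases, had the largest fall, at 42.3, 9.33, 17.7, 56.5 and 44.9 RPKM, and fell alike in naive cells, at 36.5, 10.2, 15.3, 33.8 and 29.6. Ier3, a survival gene, fell from 31.2 to 14.4 RPKM in pretreated and rose from 33.6 to 70.4 in naive cells. Egr1, a zinc finger factor, stood at 49.8, 106, 57.5, 98.4 and 42.0 RPKM in pretreated cells, again high at 1 and 4 h, and at 111 and 108 in naive cells at 0 and 1 h. Among other falls Mt1, a metal-binding metallothionein, stood at 781, 282, 613, 180 and 400 RPKM in pretreated cells and at 480 and 778 in naive cells at 0 and 1 h. Snai1, a repressor of epithelial genes, fell from 106 to 45.4 RPKM in pretreated cells and stood at 115 and 141 in naive cells.

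Some small structured RNAs were high in the pretreated 0 h library. Rpph1, the RNA of ribonuclease P, stood at 110, 41.8, 7.08, 9.73 and 7.39 RPKM in pretreated cells, and Rmrp, the RNA of the related MRP enzyme, at 76.0, 30.6, 4.58, 6.42 and 3.57. In naive cells Rpph1 stood at 11.9 and 32.8 RPKM and Rmrp at 5.98 and 21.9 at 0 and 1 h. Both RNAs and Rn45s were thus highest in the pretreated 0 h library and next in the pretreated 1 h library, and the part of total RNA make-up in these falls was not tested. Of the 159 rises 126 were in protein-coding genes and 11 each in microRNA and long noncoding genes. Mir1249, at 0 and 1.47 RPKM, is an example of a short gene whose values rest on few counts.

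Rises lay close together on the chromosomes. Of 157 rises at a single locus, 57 (36.3%) had another rise within 100000 bases, against 2.93% of the 11956 genes that did not rise. On chromosome 19 a group of 7 rises, from Ch25h through Ifit2, Ifit3, Gm14446, I830012O16Rik and 2010002M12Rik to Ifit1, spans chr19:34473784-34650009 (mm10, from the deposited table). Groups of Gbp genes lie at chr5:105078394-105346472 with 5 rises and chr3:142496934-142638008 with 3. Cxcl10 and Cxcl11 lie together at chr5:92346639-92363277, Rsad2 and Cmpk2 at chr12:26442743-26479837, and Mx1 and Mx2 at chr16:97447035-97560899. Outside the interferon families, the small leucine-rich proteoglycan genes Aspn, Omd and Ogn, whose proteins bind collagen, lie at chr13:49544443-49624500. The 57 also include overlapping entries of the same place, such as H19 with Mir675 and Mir3074-1 with Mir24-1 (chr13:63301199-63301283). Neighbouring genes can share reads where they overlap, and the labels do not say whether counting used the strand.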

How the data were processed

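Total RNA of 10 MEF libraries was sequenced on an Illumina HiSeq2000, per the labels. Bowtie, TopHat, Cufflinks 1.2.1 and the build mm10 are named in the submitters' processing notes, without roles. The deposited table gives, per RefSeq transcript and library, a raw tag count and an RPKM value computed by the authors, per the file headers. A length column, per the file headers, was not used as transcript length. In 10637 transcripts count and RPKM differed by 1 factor per library and transcript, within 0.000167 (log2). Of 30646 rows, 15 named no gene (0.0157% to 0.0193% of counts) and were left out, and 4306 symbols had several rows. Differences are log2(RPKM + 1) between single libraries, with 2-fold as the threshold. Counting intervals are exact binomial (95%). RPKM was kept over counts because no replicated count test was possible. The labels do not state separate cultures. Alternatives covered pseudocount, filter, fold, row choice and scaling by TMM (edgeR 4.0.16) or DESeq2 1.42.0 size factors; scripts ran in Python 3.11.15 and R 4.3.3. The members and lists were chosen with earlier results of these data known. Named genes were the 20 largest rises, 12 largest falls, 8 largest gains, 10 largest arm differences each way, the largest 1 and 4 h splits, and list members. Genes of the chromosome groups and genes with opposite changes in the arms were also named. Snai1 was named outside these rules. The genes of each motif were the 3 largest rises that hold it, among those with a promoter in the table.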

Additional observations from a re-analysis of the deposited data

Results flagged for a closer look

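In 6 genes the first-hour change went in opposite directions in the arms, 2-fold or more each way, and the difference was not tested because each arm and time had 1 library. Pretreated minus naive, the difference of log2 changes was -2.11 for Ier3, -3.0 for Rmrp, -2.77 for Rpph1, -2.90 for Rprl3, -2.58 for Scarna9 and -2.83 for Snord14a. Apart from Ier3 these are small noncoding RNAs. Scarna9 and Snord14a are short and were at 0 RPKM in the naive 0 h library, and the counting interval of the pretreated Snord14a ratio, 0.119 to 1.05, spans 1.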

How the results depend on the processing

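No paired analysis was possible because each arm and time had 1 library. The 159 rises, 31 falls and 69 shared rises became 294, 82 and 135 with a pseudocount of 0.1 RPKM, and 62, 12 and 36 with 5 RPKM. A fold of 1.5 gave 517 rises and 354 falls, and a fold of 3 gave 50 and 3. Asking for 2-fold at 2 h as well left 104 rises and 17 falls. Leaving out genes ordered by the 1 and 4 h libraries, an alternative chosen after seeing the data, left 105 rises, 18 falls and, of the 144 rises with the larger gain in pretreated cells, 94. TMM scaling (149 rises), DESeq2 size factors (157), summed rows (174), a filter of 5 RPKM (129) and protein-coding genes only (126, also added later) stayed within 1.5 times. The median over all genes (0.009) lay near 0 and was below it with TMM (-0.004) and the filter of 5 RPKM (-0.001). No named gene or list median changed sign in the settings where these were followed. The other called genes were not followed one by one. A change of pseudocount cannot turn the sign of a gene's change, so the unchanged signs say little about robustness. With 1 library a group, depth limits only counting error. The interval of 158 of 159 rises lay above 1.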
